A study of Drosophila mojavensis with 97 samples.

Results

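The cactus on which larvae of Drosophila mojavensis from Punta Prieta had fed was compared in adult females, 13 arrays of females reared on agria with 12 arrays of females reared on organ pipe. These were all of the arrays whose label names Punta Prieta, a site in Baja California, and they made up 25 of the 97 arrays of the series. Each cactus was represented at 15, 25, and 35°C by 4 arrays, apart from agria at 35°C with 5, and the 3 temperature means were averaged with equal weight so that neither cactus was tied to a temperature. All flies were wild-type, from 1 laboratory stock founded with wild-caught flies. Per the methods of the study, eggs were placed on autoclaved tissue of agria (Stenocereus gummosus) or organ pipe (Stenocereus thurberi) inoculated with a pectolytic bacterium and cactus yeasts, the emerged adults were kept on banana food for about a week, and mature females were then exposed to one of the temperatures. The labels describe the adults themselves as raised on medium made from the cactus, which differs from the methods. RNA came from pools of whole females, so that 1 array stands for a pool and not for a fly, and fewer cells of a tissue and less RNA per cell cannot be told apart.

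D. mojavensis breeds in the rotting tissue of columnar cacti, where larvae feed on the plant juices together with the bacteria and yeasts that ferment them. Agria is the main host in Baja California and organ pipe the main host on the mainland. Cactophilic flies take up sugars, lipids, and the plants' triterpene and sterol compounds with this food. Gut peptidases release amino acids from microbial and plant protein, carriers in the gut wall import solutes, and cytochrome P450 enzymes with glutathione and glycosyl transferases modify foreign compounds. Because the adults had left the cactus before RNA was taken, the comparison asks which transcripts of adult females differed with the food of the preadult stages.

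The arrays carried 14528 transcripts, each measured with several probes in 1 colour, and the values deposited by the authors are log2 values after quantile normalization and summary by the RMA method. A difference of 1 on this scale is a 2-fold difference, and all differences here are agria minus organ pipe. Array medians lay between 9.95 and 10.10 on agria and between 9.91 and 10.005 on organ pipe, and the mean medians of 10.02 ± 0.04 (SD, n = 13) and 9.97 ± 0.03 (SD, n = 12) differed by 0.05 (two-sided permutation test with 100000 resamples, p = 0.00092, adjusted over 2 tests 0.00184). The interquartile range of an array averaged 3.06 on agria and 2.96 on organ pipe (same permutation test, p = 0.0311). The arrays farthest from the rest of their group were replicate 4 of organ pipe at 35°C, replicate 2 of organ pipe at 25°C, and replicate 3 of agria at 35°C. The SD of their difference from the rest of the group over all transcripts was 0.77, 0.60, and 0.46, while it was 0.18 to 0.38 for the other 22 arrays. Beside the main count below, the count without these 3 arrays is given.

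Most transcripts that passed the test between the cacti were higher in flies reared on agria, whereas transcripts at large were not. Of the 14528 transcripts, 1039 (7.15%) differed at an adjusted p under 0.01 in limma with Benjamini-Hochberg adjustment, 940 of them (6.47%) with higher expression on agria and 99 (0.681%) with higher expression on organ pipe. The differences of the 940 were small, with a median of 0.45 and a range from 0.16 to 1.08, and the median fold was 1.37. Those of the 99 ran from -0.66 to -0.20 with a median of -0.36, a median fold of 1.28. A fold of at least 1.5 was reached by 160 of the agria-higher transcripts (1.1% of all) and by 1 of the organ pipe-higher transcripts (0.00688%), the identifier FBtr0162057. Over all transcripts the median difference was -0.03, and 6549 transcripts (45.1%) were higher on agria in sign. At an unadjusted p under 0.05 stood 5858 transcripts (40.3%), and the directions were about equally frequent, with 2962 transcripts higher on agria (20.4%) and 2896 higher on organ pipe (19.9%).

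The count depended on a few arrays, and the share of each direction in it on the scaling, the array weights, and the threshold. Without the 3 arrays farthest from their groups, 457 transcripts passed, 436 higher on agria and 21 higher on organ pipe, and 374 of them were among the 1039. Without replicate 3 of agria at 15°C or replicate 1 of organ pipe at 15°C the count was 239 or 260. With 1 Punta Prieta array left out at a time, agria-higher transcripts were 86% to 93.2% of the calls. Agria-higher transcripts were 90.5% of the calls as deposited, 68.6% after each array was centred on its median (474 and 217 transcripts), 77.6% after a further quantile normalization (596 and 172), and 60.1% with a term for the interquartile range of the array in the fit (1012 and 671). They were 61.1% with limma array weights, whose estimation did not converge (2272 and 1444). At an adjusted p under 0.05 they were 66.2% (2111 and 1080), and 99.4% when a fold of at least 1.5 was also asked for (160 and 1).

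**Figure D1:**
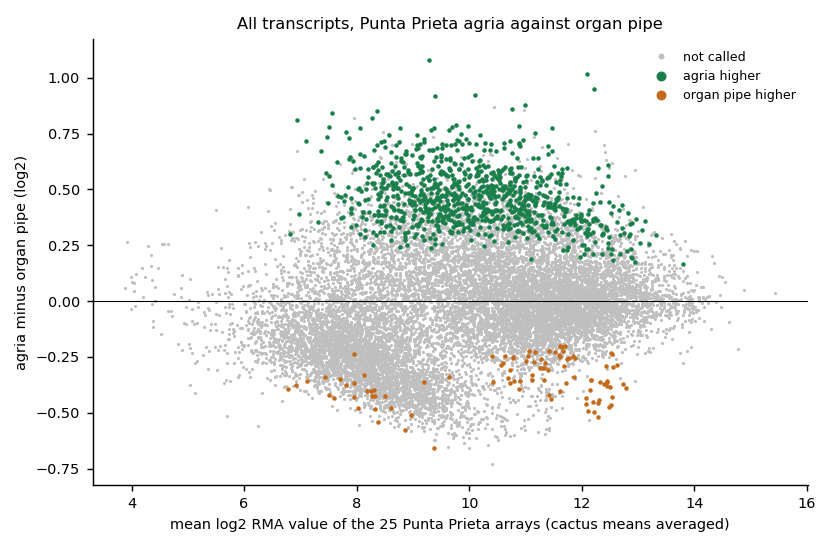
Mean log2 level of each of 14528 transcripts in the 25 Punta Prieta arrays (horizontal axis) against its agria minus organ pipe difference (log2, vertical axis). The 940 transcripts called higher on agria are green, the 99 called higher on organ pipe are orange and the rest are grey. Below a level of about 9 the cloud is centred under 0.

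The 2 sets of calls lay at different levels of signal. The agria-higher transcripts had a median level of 10.01, close to that of all transcripts at 9.98, and the organ pipe-higher transcripts one of 11.28. When all transcripts were ranked by level and split into 10 equal bins, the median difference was -0.13, -0.17, -0.19, and -0.08 in the 4 dimmest bins and between -0.00 and 0.05 in the others. Of the agria-higher transcripts, 189 lay in the fifth bin and 8 in the dimmest one. Whether the difference in array medians and interquartile ranges had a part in this was not tested.

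Transcripts were named from tables that accompany the study. Such tables paired 4161 of the transcripts with a gene, 626 with a gene or ortholog name, and 1385 with a name or words of annotation. Those tables mostly list transcripts that the study itself had called in these samples. Of the 1385 annotated transcripts, 22.5% were called agria-higher, 80.5% had a positive difference, and the median difference was 0.23, compared with 4.78%, 41.3%, and -0.04 for the other 13143. Membership in the gene groups below is therefore no independent evidence of their direction, and the counts and medians of each group are to be read against the 22.5% called, the 80.5% positive, and the median of 0.23 of all annotated transcripts. The counts called in a group also varied widely among 14 other settings of the fit or threshold, whose lowest and highest counts are given with those of the larger groups. Of the 1039 calls, 336 carried a name or words, 312 of the agria-higher and 24 of the organ pipe-higher transcripts. Of 98 named calls that were refitted 30 times, each time without 1 array or 1 replicate number, 22 were lost in more than 15 of the fits. Among the agria-higher calls these included GI20850, CG13492, FBtr0169804, disco, GI21891, Ance-5, CG10178, CG14964, CG7678, Cyp6a16Psi, Cyp6a23, NPC1b, VGlut, and ebony, and among the organ pipe-higher calls FBtr0168893, FBtr0171469, FBtr0172110, FBtr0174274, GI19843, GI20284, and GI20397. Each of the 98 kept its sign in these fits.

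The named transcripts with the largest increases on agria began with a pair of genes of the indirect flight muscle, the fibrillar muscle that powers the wings. GI23222, the ortholog of Act88F, encodes the actin that in D. melanogaster forms the thin filaments of this muscle. Its log2 value was 12.05 at lowest, 12.65 in the median, and 13.15 at highest in the 13 agria arrays, and 10.12, 11.53, and 12.65 in the 12 organ pipe arrays. The groups overlapped, with 9 of the 12 organ pipe arrays below the lowest agria array. Act88F was 2.02-fold higher on agria (log2 difference 1.02 ± 0.19 SE, limma with Benjamini-Hochberg adjustment, adjusted p = 0.000899). Group means on agria were 12.72 ± 0.39, 12.71 ± 0.13, and 12.38 ± 0.36 at 15, 25, and 35°C (SD, n = 4, 4, and 5), and on organ pipe 11.04 ± 0.66, 11.71 ± 0.50, and 12.02 ± 0.60 (SD, n = 4 each).

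GI13378 is the ortholog of flightin (fln), a protein of the thick filaments of the same muscle. Its values ran from 12.22 to 13.08 with a median of 12.70 on agria and from 8.98 to 12.69 with a median of 11.97 on organ pipe. The lowest value belonged to replicate 1 of organ pipe at 15°C, and the other 11 organ pipe arrays lay at 11.25 or above. Flightin was 1.93-fold higher on agria (0.95 ± 0.24 SE, limma adjusted p = 0.00436). When 1 array or 1 replicate number was left out at a time, its difference ranged from 0.62 to 1.17, and in 6 of 30 such fits it did not pass the threshold. Leaving out single arrays or numbers moved the difference of Act88F between 0.91 and 1.08, and the call was lost in 2 of 30 fits.

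Other muscle genes showed smaller differences. The median difference of the 14 transcripts in the muscle group was 0.15, below that of all annotated transcripts. A positive difference was found in 12 of the 14 (85.7%, beside 80.5% of annotated transcripts), and the lowest was -0.17. None was called higher on organ pipe, and 5 rose on agria (35.7%, beside 22.5% of annotated transcripts, and 1 to 8 in the other settings). Beside Act88F and flightin these were htl (0.43), a fibroblast growth factor receptor needed for mesoderm and heart formation in D. melanogaster, DmsR-1 (0.27), a receptor for the muscle-inhibiting peptide myosuppressin, and CG14964 (0.42). Other structural genes of muscle did not pass the test. The myosin light chain gene Mlc1 differed by 0.15 ± 0.06 SE, the troponin C gene TpnC73F by 0.15 ± 0.07, TpnC41C by 0.09 ± 0.09, the troponin I gene wupA by 0.23 ± 0.08, and the titin-like gene sls by 0.16 ± 0.10.

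**Figure D2:**
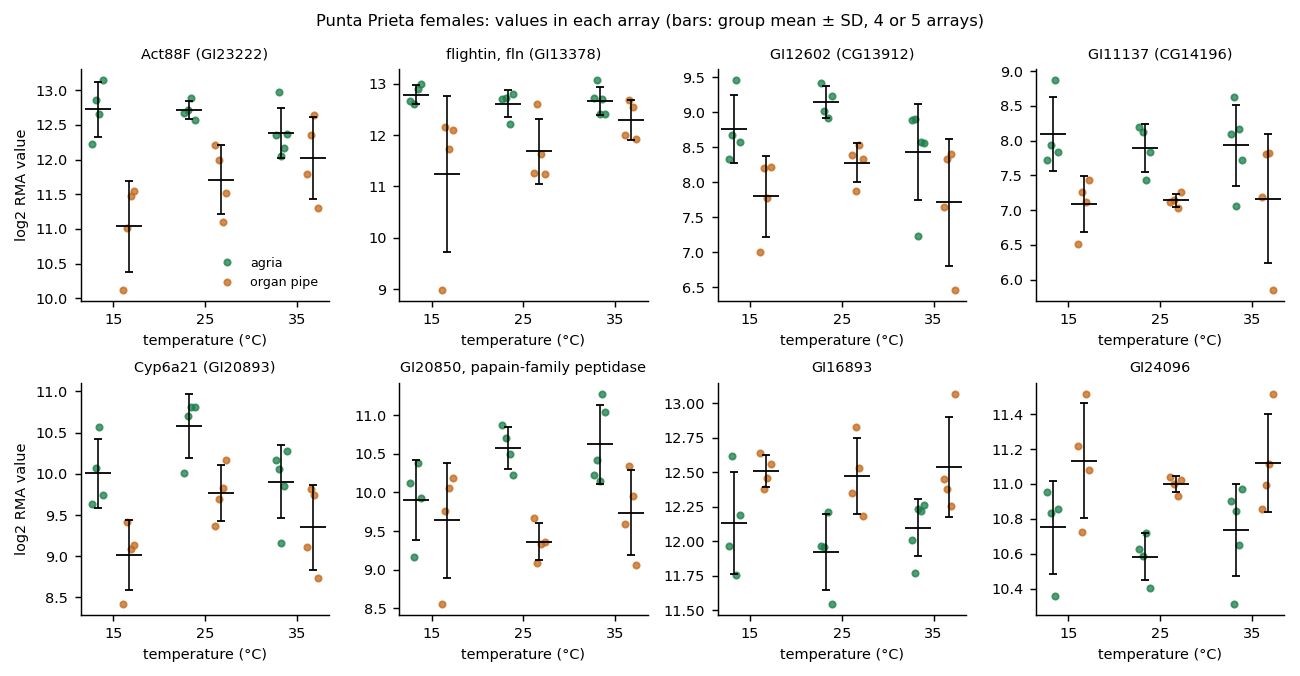
Log2 RMA values of 8 transcripts in each Punta Prieta array by temperature (°C), with agria in green, organ pipe in orange, and bars for the group mean ± SD over 4 or 5 arrays. The lowest organ pipe values of Act88F and flightin belong to replicate 1 at 15°C, and GI16893 and GI24096 lie higher on organ pipe at each temperature.

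Peptidases formed the largest annotated groups. Their shares called were 26.9% and 37.8%, beside 22.5% of annotated transcripts. Of 78 serine peptidases, which include the trypsins and chymotrypsins that digest dietary protein, 21 rose on agria, 1 rose on organ pipe, and the median difference was 0.34. In the other settings the agria-higher count ran from 1 without temperature in the fit to 48 with array weights, and was 2 on the Punta Prieta arrays alone and 11 after median centring. Of 74 cysteine, metallo-, carboxy-, and aminopeptidases, 28 rose on agria (3 to 59 in the other settings), none on organ pipe, and the median was 0.35. Serine carboxypeptidases fell in both groups, which shared 4 transcripts, all called, so that 24 of the 70 others rose. GI20850, annotated as a papain-family cysteine peptidase of the cathepsin type, had values of 9.17, 10.38, and 11.28 (lowest, median, highest) on agria and 8.56, 9.63, and 10.35 on organ pipe. Its difference was 0.79 ± 0.22 SE, a 1.72-fold higher level (limma adjusted p = 0.00926), and 7 of the 13 agria arrays lay above every organ pipe array. That call was lost under 9 of 14 other settings and in 19 of 30 fits that left arrays out.

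Several peptidases known here by identifier alone differed by a similar amount. FBtr0163029 and FBtr0163693, annotated as a serine-type and a metal-dependent carboxypeptidase, were higher on agria by 0.77 ± 0.19 and 0.75 ± 0.19 SE. FBtr0166604 and FBtr0166606, a pair of serine endopeptidases, were higher by 0.78 ± 0.20 and 0.77 ± 0.18. The serine-type peptidase FBtr0162225 separated the cacti more evenly, with values from 10.15 to 11.10 on agria and from 8.89 to 10.41 on organ pipe, and 10 of 13 agria arrays lay above all 12 organ pipe arrays. Ance-5 (0.57) and Tace (0.39), membrane peptidases that process peptides or shed proteins from the cell surface, also rose. GI17776, a chymotrypsin-type peptidase that the study names for its cactus effect, differed by 0.86 ± 0.27 SE and did not pass (limma adjusted p = 0.0214). The digestive genes Jon66Ci, Jon25Bi, iotaTry, and epsilonTry differed by 0.12, 0.48, 0.24, and 0.49 and did not pass either. FBtr0169389, a serine endopeptidase, was lower on agria (-0.21 ± 0.05 SE).

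Inhibitors of peptidases are proteins of the Kunitz, Kazal, or serpin types that block such enzymes. Of 50 inhibitors, 14 rose on agria (28%, 0 to 26 transcripts in the other settings), none on organ pipe, and 43 (86%) had a difference above 0, with a median of 0.32. Both shares were near the 22.5% and 80.5% of annotated transcripts. FBtr0168479, a Kunitz-type inhibitor, was higher by 0.62 ± 0.14 SE, with values from 9.09 to 11.32 on agria and from 8.44 to 10.60 on organ pipe.

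Membrane transporters had the highest median of the groups, 0.40, and 10 of their 22 members rose on agria (45.5%, beside 22.5% of annotated transcripts, and 2 to 19 transcripts in the other settings). GI11137, the ortholog of CG14196, is a member of the major facilitator superfamily with monocarboxylate transport among its annotations. Its values were 7.06, 7.94, and 8.87 (lowest, median, highest) on agria and 5.85, 7.17, and 7.82 on organ pipe, and 9 agria arrays lay above all organ pipe arrays. The difference of 0.84 ± 0.18 SE was 1.79-fold (limma adjusted p = 0.00169). CG17119, the ortholog of a lysosomal cystine carrier, was the most cleanly separated of the named transporters. Its values ran from 9.05 to 10.37 on agria and from 8.75 to 9.55 on organ pipe, with 12 of 13 agria arrays above all organ pipe arrays and a difference of 0.69 ± 0.14 SE.

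The other transporters that rose carried a range of solutes. They were CG2187, annotated as a sodium:iodide symporter (0.73), the multivitamin carrier Smvt (0.47), the organic anion carrier Oatp33Ea (0.47), the sodium/proton exchanger Nha2 (0.59), the predicted amino acid carriers CG8785 (0.53) and CG12531 (0.57), the neurotransmitter symporter CG10804 (0.37), and the vesicular glutamate carrier VGlut (0.41). Proton pumps of the vacuolar type, which energize much of this transport, were all positive in sign. Of their 10 transcripts 1 rose (10%, beside 22.5% of annotated transcripts), CG7678 (0.37 ± 0.10 SE), and the median was 0.14.

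Of 28 cytochrome P450 transcripts, 8 rose on agria (0 to 17 in the other settings), none on organ pipe, and the median was 0.36. The share called, 28.6%, was near the 22.5% of annotated transcripts. GI20893, the ortholog of Cyp6a21, had values of 9.16, 10.07, and 10.81 (lowest, median, highest) on agria and 8.42, 9.39, and 10.17 on organ pipe, and the cactus groups overlapped in the middle of this range. It was 1.73-fold higher on agria (0.79 ± 0.15 SE, limma adjusted p = 0.000899). Cyp12a5 (0.47), a mitochondrial P450, and Cyp312a1 (0.44), Cyp6a23 (0.37), and Cyp6a16Psi (0.53) rose as well. The P450 genes of ecdysone synthesis did not pass: phm differed by 0.43 ± 0.17, dib by 0.14 ± 0.08, sad by -0.14 ± 0.10, and shd by -0.01 ± 0.10 (SE).

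Of 14 transcripts for conjugation and ester cleavage, 5 (35.7%) rose on agria, beside 22.5% of annotated transcripts. The median was 0.32, and 0 to 8 rose in the other settings. The 5 calls included the glutathione S-transferases FBtr0166206 (0.33) and FBtr0170113 (0.53) and the glucuronosyltransferase CG10178 (0.42). Another was GI21891, a lipase and carboxylesterase with phospholipase activity (0.66 ± 0.18 SE, limma adjusted p = 0.00754). GI21891 had values from 9.60 to 12.30 on agria and from 9.89 to 11.82 on organ pipe, and its lowest value came from replicate 3 of agria at 35°C. CG17322, annotated as a galactosyltransferase, had values from 9.21 to 10.73 on agria and from 9.09 to 10.09 on organ pipe and rose by 0.52 ± 0.09 SE (limma adjusted p = 0.000727).

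Lipid genes gave few calls. The group median was 0.32. Of 14, 3 rose on agria (21.4%, beside 22.5% of annotated transcripts, and 0 to 9 in the other settings). They were GI21891 again and the triglyceride and lipoprotein lipases CG5932 (0.70 ± 0.18 SE) and CG10116 (0.59 ± 0.12). Of 4 transcripts of carbohydrate cleavage, the glycogen debranching enzyme CG9485 rose (0.31 ± 0.08), and 3 transcripts with an alpha-amylase domain differed by 0.29, 0.27, and 0.01 and did not pass.

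Transcripts of energy metabolism had small differences of one sign. All 41 transcripts of oxidative phosphorylation and all 26 of glycolysis and the citrate cycle had positive differences, compared with 80.5% of annotated and 45.1% of all transcripts. Their medians, 0.23 and 0.24, were those of the annotated transcripts as a whole, and 2 and 9 of them passed the test (1 to 32 and 0 to 17 in the other settings). These were 4.88% of the oxidative phosphorylation and 34.6% of the glycolysis and citrate cycle transcripts, beside 22.5% of annotated transcripts. FBtr0171653, annotated for electron transport, was higher by 0.92 ± 0.20 SE, with values from 10.16 to 10.95 on agria and from 8.18 to 10.48 on organ pipe. The other oxidative phosphorylation call was disco (0.38). It is a transcription factor of nervous system development in D. melanogaster that carried words of oxidase activity in the tables. Subunits of complexes I and II did not pass, with ND42 at 0.29 ± 0.08, ND75 at 0.28 ± 0.10, and SdhC at 0.26 ± 0.09 (SE).

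**Figure D3:**
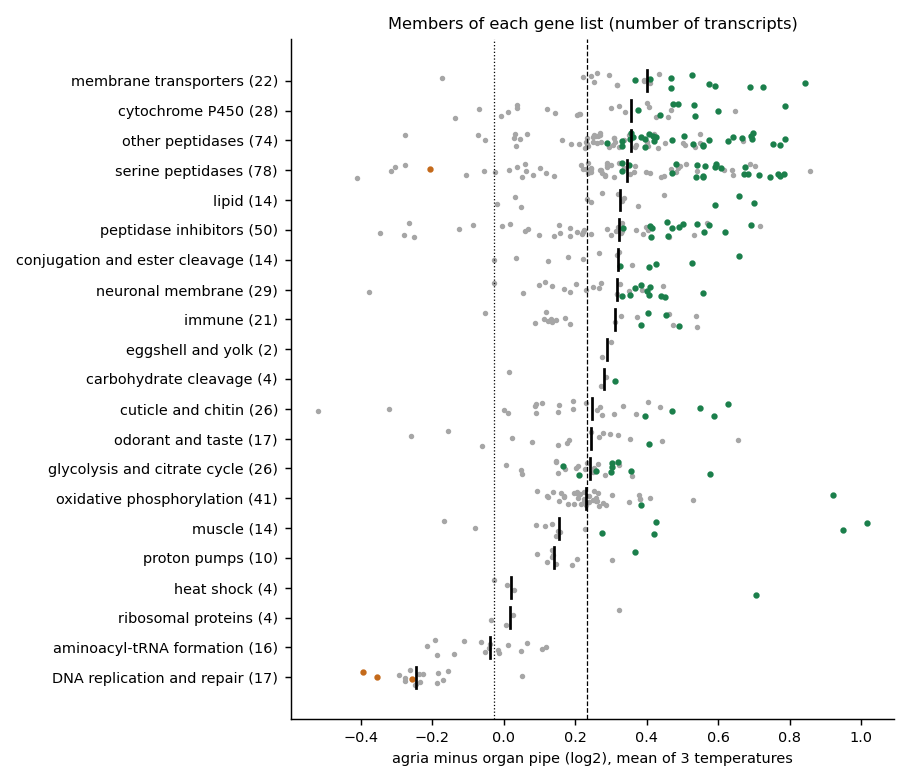
Agria minus organ pipe difference (log2, mean of 3 temperatures) of each member of 21 gene groups, with the number of transcripts in parentheses and a black bar at each group median. Green and orange points passed the test as higher on agria and on organ pipe, grey points did not, and the dotted and dashed lines mark the medians of all (-0.03) and of annotated transcripts (0.23).

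Genes of channels, receptors, and synapses, of cuticle, and of immunity followed. Their shares called agria-higher were 34.5%, 19.2%, and 19%, beside 22.5% of all annotated transcripts. Of 29 transcripts of channels, receptors, and synapses, 10 rose on agria (0 to 21 in the other settings) and the median was 0.32. They included Irk2, an inwardly rectifying potassium channel (0.41), the kainate-type glutamate receptor CG5621 (0.35), the chloride channel CG11340 (0.44), and CanB, a regulatory subunit of calcineurin (0.56). The acetylcholine receptor subunits nAcRbeta-64B (0.35 ± 0.11) and nAcRalpha-30D (0.45 ± 0.16) did not pass.

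Of 26 cuticle and chitin transcripts, 5 rose (1 to 13 in the other settings), with a median of 0.25. They were the chitinases FBtr0167983 (0.55) and FBtr0170845 (0.63), the chitin-binding FBtr0163816 (0.47), Peritrophin-A of the gut lining (0.39), and ebony (e, 0.59), the enzyme that joins beta-alanine to dopamine in cuticle tanning. The cuticle protein gene Cpr65Eb differed by -0.52 ± 0.15 and did not pass. Of 21 immune transcripts, 4 rose (0 to 9 in the other settings), with a median of 0.31, among them Tehao, a Toll-family receptor (0.45), and PGRP-LA, a peptidoglycan recognition protein (0.49). Tl, the receptor Toll itself, differed by -0.05 ± 0.07 and did not pass. Of 17 odorant and taste transcripts, 1 odorant-binding protein rose, FBtr0161033 (0.41 ± 0.11 SE). The share called was 5.88%, and 0 to 9 rose in the other settings.

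Some groups held few members or moved little. Of 4 chaperone transcripts, the cognate Hsc70-1 rose by 0.70 ± 0.17, whereas Hsc70-4, Hsc70-3, and CG8531 differed by -0.03, 0.03, and 0.01. Of 4 ribosomal protein transcripts and 16 of aminoacyl-tRNA formation, none passed, and the medians were 0.02 and -0.04. No histone transcript could be identified from the tables. The eggshell genes Vm26Aa and Vm26Ab, which mark ovaries with developing eggs, had mean levels of 12.43 and 13.39 on agria and 12.16 and 13.09 on organ pipe. These differences of 0.28 ± 0.24 and 0.30 ± 0.17 SE did not pass (limma adjusted p = 0.399 and 0.179), and single arrays on both cacti ranged from 10.02 to 14.18. The eye gene glass (gl) differed by 0.05. No marker of fat body, neurons, or testis was matched by the tables, so the shares of these tissues were not tested.

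Single arrays differed widely within a cactus. Over the 78 serine peptidases, the mean deviation of an array from the 25-array mean ran from -0.39 to 0.58 on agria, where 12 of 13 arrays were above 0, and from -0.81 to 0.30 on organ pipe, where 3 of 12 were. The lowest organ pipe arrays were replicate 1 at 15°C (-0.81) and replicate 4 at 35°C (-0.77), and the highest agria array was replicate 3 at 15°C (0.58). Those arrays took the same places for oxidative phosphorylation, at -0.72, -0.68, and 0.42. For that group, replicate 2 of organ pipe at 25°C was higher than any agria array, at 0.55. Membrane transporters overlapped less, from -0.07 to 0.57 on agria and from -0.44 to 0.04 on organ pipe. After each array was centred on its median, the median difference was 0.29 for serine peptidases, 0.18 for oxidative phosphorylation, 0.35 for membrane transporters, and -0.30 for DNA replication and repair, while that of all transcripts was -0.08.

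**Figure D4:**
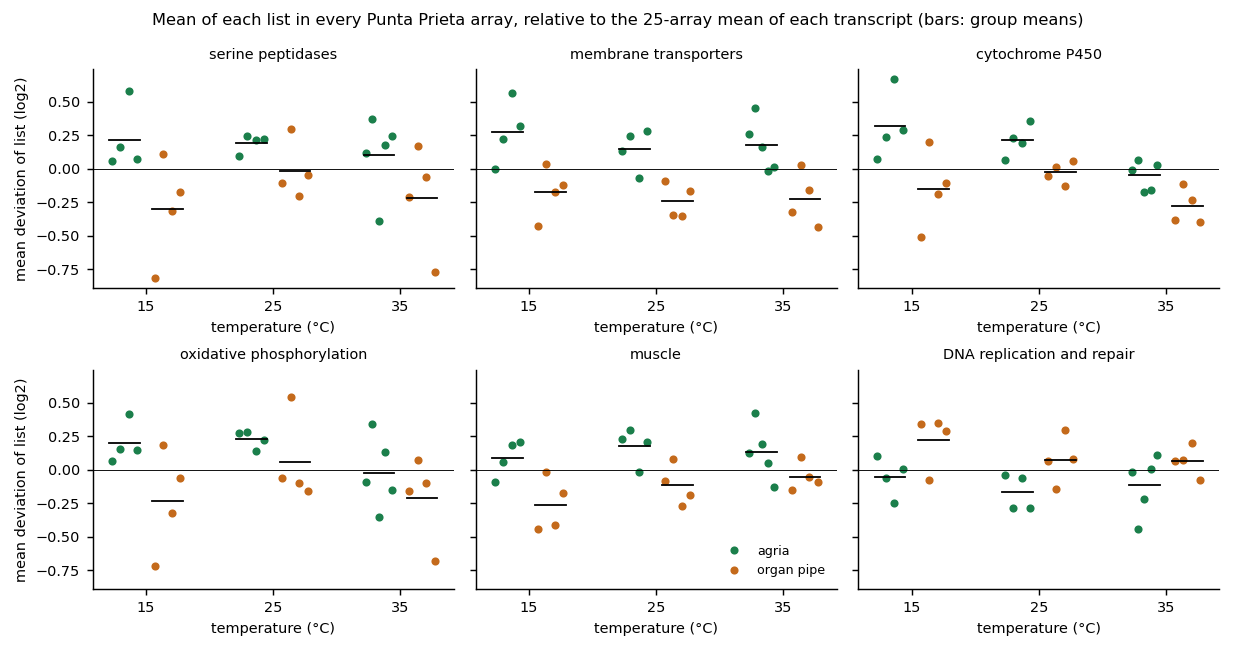
Mean deviation (log2) of the members of 6 gene groups in each Punta Prieta array from the 25-array mean of each transcript, by temperature (°C), with agria in green, organ pipe in orange, and bars at the group means. Replicate 1 of organ pipe at 15°C lies at -0.81 for serine peptidases, and DNA replication and repair is the group in which organ pipe lies higher.

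Expression higher on organ pipe was found for DNA replication and repair among the annotated groups. Of 17 transcripts, 3 were called higher on organ pipe and none on agria. In the organ pipe direction, 24 of the 1385 annotated transcripts and 0.681% of all transcripts were called. A negative difference was found in 16 of the 17, and the median was -0.25. The count of 3 was 0 on the Punta Prieta arrays alone, 14 with a term for the interquartile range, and 15 with array weights, and the median stayed negative in all settings. GI24096, annotated for DNA replication, had values of 10.31, 10.72, and 10.97 (lowest, median, highest) on agria and 10.72, 11.03, and 11.52 on organ pipe, and 9 organ pipe arrays lay above all agria arrays. Its difference was -0.39 ± 0.10 SE (limma adjusted p = 0.00583). FBtr0171469 and FBtr0168893, with the same annotation, differed by -0.36 ± 0.10 and -0.26 ± 0.07. Whole females contain ovaries, in which much of the DNA replication of an adult takes place. The ovary markers that could be matched, Vm26Aa and Vm26Ab, were higher on agria in sign, by 0.28 and 0.30, and did not pass. Whether ovary content had a part in the difference was not tested.

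The remaining named transcripts with higher expression on organ pipe had no function in the tables apart from FBtr0174274, annotated as a serine/threonine protein kinase (-0.37 ± 0.10 SE). GI16893 had values of 11.54, 12.01, and 12.62 on agria and 12.19, 12.45, and 13.07 on organ pipe, a difference of -0.46 ± 0.10 SE (limma adjusted p = 0.00148). GI23888 was among the best separated, with values from 10.24 to 10.86 on agria and from 10.75 to 11.39 on organ pipe, 8 organ pipe arrays above all agria arrays, and a difference of -0.36 ± 0.08 (adjusted p = 0.00143 in limma). GI17540, GI19843, GI20397, GI22071, GI20284, GI18419, and GI12550 differed by -0.43 to -0.29. FBtr0162057 and FBtr0172110, known by identifier alone, had the largest differences among the calls in this direction, -0.66 ± 0.17 and -0.58 ± 0.16.

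Among agria-higher transcripts without a known function, FBtr0165571 had the largest difference of all transcripts, 1.08 ± 0.25 SE, with values from 7.79 to 10.85 on agria and from 7.60 to 10.21 on organ pipe. FBtr0169804 differed by 0.92 ± 0.25. GI12602, the ortholog of CG13912, had values of 7.23, 8.89, and 9.46 on agria and 6.46, 8.21, and 8.53 on organ pipe. It was 1.80-fold higher on agria (0.85 ± 0.20, limma adjusted p = 0.00301), and 11 of 13 agria arrays lay above all organ pipe arrays. GI20859, the ortholog of CG13492, differed by 0.75 ± 0.21. Complete separation, with all 13 agria arrays above all 12 organ pipe arrays, occurred in 1 transcript (0.00688%), FBtr0164066, which was picked out after its values were seen. It ran from 10.05 to 10.67 on agria and from 8.99 to 10.05 on organ pipe, with a difference of 0.56 ± 0.11.

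Whether the effect of the rearing cactus changed with adult temperature was tested next. At a single temperature, 0 transcripts passed at 15°C, 0 at 25°C, and 1 at 35°C (0.00688%) in limma, whereas 1868 (12.9%), 1828 (12.6%), and 2640 (18.2%) had an unadjusted p under 0.05. The smallest adjusted p was 0.0423 at 15°C and 0.0102 at 25°C. The transcript at 35°C was FBtr0172200, which was 0.68 ± 0.12 SE higher on agria (limma adjusted p = 0.00797) and differed by 0.08 ± 0.13 at 15°C and 0.15 ± 0.13 at 25°C. The interaction of cactus and temperature passed in 0 transcripts, with 148 (1.02%) at an unadjusted p under 0.05.

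All 940 agria-higher transcripts had a positive difference at each of the 3 temperatures, and all 99 organ pipe-higher transcripts a negative one, on the arrays that made the calls. Of all transcripts, 28.7% were positive and 36.4% negative at all 3. The median difference of the 940 was 0.50 at 15°C, 0.44 at 25°C, and 0.40 at 35°C, and that of the 99 was -0.31, -0.36, and -0.38.

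For Act88F and flightin the cactus difference was compared between temperatures, and the interaction passed for neither. Act88F differed by 1.68 ± 0.33 SE at 15°C and by 0.36 ± 0.32 at 35°C, with the value at 25°C in between, and had an unadjusted interaction p of 0.0197 and an adjusted p of 1 in limma. For flightin, the differences were 1.55 ± 0.42, 0.93 ± 0.42, and 0.37 ± 0.40 at the 3 temperatures, with an unadjusted interaction p of 0.13 and an adjusted p of 1 in limma. Without replicate 1 of organ pipe at 15°C, the difference in group means at 15°C was 0.80 for flightin, below that at 25°C, and 1.38 for Act88F. In GI20850 the order was another, with 0.26 ± 0.39, 1.21 ± 0.39, and 0.88 ± 0.37. ninaD, a scavenger receptor for carotenoid uptake, differed by 0.82 ± 0.24 at 15°C and by 0.03 ± 0.24 and 0.27 ± 0.23 at 25 and 35°C. CG18788, a predicted membrane transporter, had the smallest interaction p of the named genes, 0.005 before and 1 after adjustment in limma, with -0.17, -0.31, and 0.33.

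The cactus effect was also compared with that in the other 3 populations, whose 72 arrays are separate from those of Punta Prieta. Against San Quintin, the other population of Baja California, the difference between cactus effects passed in 0 transcripts in limma (308, or 2.12%, at an unadjusted p under 0.05, smallest adjusted p 0.999). Against the mean of San Quintin, Punta Onah, and Organ Pipe National Monument, 0 passed as well (611, or 4.21%, smallest adjusted p 0.866). No transcript was therefore shown to respond to cactus in a way particular to Punta Prieta, and a difference that misses the threshold does not show that the populations respond alike.

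In the arrays of the other populations most of the Punta Prieta calls had the sign they had in Punta Prieta, with the lowest shares in Punta Onah. The calls were not fully independent of those arrays, since their spread was estimated from all 97 arrays. On the Punta Prieta arrays alone 275 transcripts passed. Of the 940 agria-higher transcripts, 933 (99.3%) were higher on agria in San Quintin, where 48.8% of all transcripts were, 935 (99.5%) in Organ Pipe National Monument, where 39.6% were, and 709 (75.4%) in Punta Onah, where 53.6% were. Their median difference was 0.23, 0.41, and 0.07 in these populations. Of the 99 organ pipe-higher transcripts, 98 were lower on agria in San Quintin (51.2% of all transcripts), 95 in Organ Pipe National Monument (60.4%), and 59 in Punta Onah (46.4%), with medians of -0.15, -0.17, and -0.01. By their own tests, 569 of the 940 and 31 of the 99 passed in Organ Pipe National Monument, where 10.5% of all transcripts were called higher on agria and 4.37% higher on organ pipe (36.1% of all at an unadjusted p under 0.05). None passed in San Quintin, which had 0 calls in limma and 2959 transcripts (20.4%) at an unadjusted p under 0.05. Punta Onah had 2 calls (0.0138%), both higher on organ pipe, and 413 transcripts (2.84%) at an unadjusted p under 0.05.

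**Figure D5:**
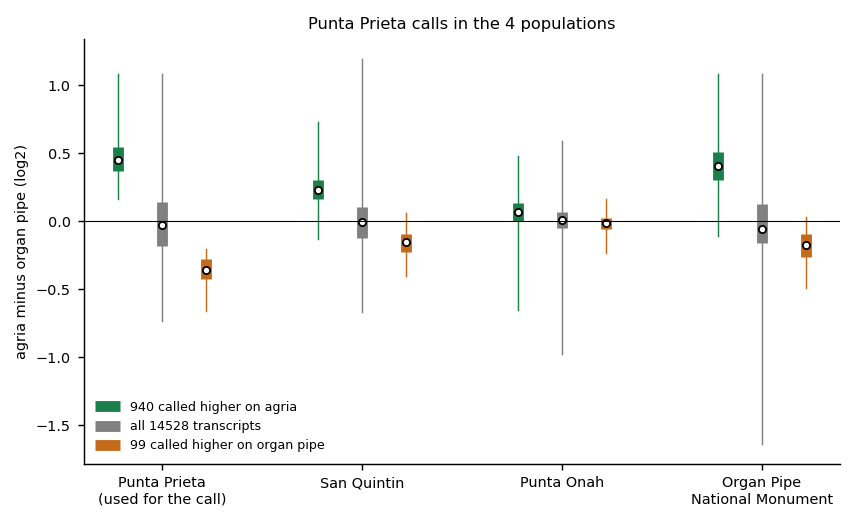
Agria minus organ pipe difference (log2) in each population for the 940 transcripts called higher on agria in Punta Prieta (green), all 14528 transcripts (grey), and the 99 called higher on organ pipe (orange). Circles are medians, thick bars quartiles and thin lines the full range, and the green median is 0.45 in Punta Prieta, where the calls were made, 0.23 in San Quintin, 0.07 in Punta Onah, and 0.41 in Organ Pipe National Monument.

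Some of the genes with the smallest unadjusted p for a difference between populations are given as values, since none passed the adjustment. Those chosen here for such a difference had a larger one in Punta Prieta. Genes with a smaller one in Punta Prieta were also among the smallest p and are not described. Cyp6a21 had a cactus difference of 0.79 ± 0.15 in Punta Prieta and of 0.15 ± 0.15, 0.18 ± 0.15, and 0.21 ± 0.15 SE in San Quintin, Punta Onah, and Organ Pipe National Monument. Its excess over San Quintin was 0.64 ± 0.21, with an unadjusted p of 0.0035 and an adjusted p of 0.999 in limma. For Act88F, the differences were 1.02 ± 0.19 and 0.63 ± 0.19, -0.57 ± 0.19, and 0.76 ± 0.19 in the same order, and its excess over the mean of the others was 0.74 ± 0.22, with an unadjusted p of 0.0011 and an adjusted p of 0.866 in limma. NPC1b, a sterol transporter of the midgut, differed by 0.57 ± 0.15 SE in Punta Prieta, 0.02 ± 0.15 in San Quintin, -0.02 ± 0.15 in Punta Onah, and 0.47 ± 0.15 in Organ Pipe National Monument, and its excess over San Quintin had an adjusted p of 0.999 in limma. Lerp, a receptor for lysosomal enzymes, differed by 0.25, 0.05, -0.00, and 0.20 in the same order, each ± 0.06 SE, with the same adjusted p. Tehao, by contrast not chosen for such a difference, was positive in all 4 populations, with 0.45, 0.49, 0.20, and 0.42.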

How the data were processed

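Gene expression of adult female Drosophila mojavensis was taken as deposited, 1 log2 value per transcript and array for 14528 transcripts on 97 arrays, with no missing value. The authors hybridized Cy3-labeled cDNA to 1-colour NimbleGen arrays, quantile-normalized spot intensities in NimbleScan, and summarized probes with RMA, so these log2 values are relative to the other arrays. Raw intensities, background, slides, and scan dates are not given in the sources used here, so signal over background and slide effects were not analysed. No value is a count and no depth exists, and the number of arrays limits precision. Columns of other samples numbered 0.

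Groups came from the labels. One mean per population, cactus, and temperature (24 groups, 73 residual degrees of freedom) was fitted to all arrays with limma 3.58.1 in R 4.3.3 (lmFit, eBayes), and contrasts of equally weighted group means were adjusted by Benjamini-Hochberg over all transcripts, with a threshold of 0.01. Per the methods, each array holds a separate group of females. Whether the groups of 1 treatment came from separate rearing cultures is not given in the sources used here, and p-values measure the spread between these pools. No pair of arrays within a Punta Prieta group was near identical, and pairs in the other populations were not compared. In Organ Pipe National Monument, the labels of organ pipe at the highest temperature repeat a replicate number and lack another. Whether the arrays with the repeated number are duplicates was not tested. They were kept, and fits by replicate number used the labels as given. The fit was tested on simulated data with independent noise in each array. Of 50 transcripts changed by each amount, 13 were recovered at a log2 difference of 0.3, 38 at 0.5, 45 at 0.8, and 50 at 1.2. Of the unchanged transcripts 2 were called. Arrays in which many transcripts deviate together were not simulated.

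Names and annotation words were taken from the supplementary tables of the study, without their values, and 22 gene lists, 4 of them added later, were filled by matching words in them. Lists and comparisons were chosen with earlier results of these data known. Named transcripts were drawn from several sets. These were the 12 largest differences past the threshold in each direction with a name or words, and 2 identifiers in each direction. The 4 smallest p of each list and the 5 smallest p in each direction for the interaction and for differences between populations were others. Members of lists of up to 15 and genes the study names for cactus were added. Not all members of these sets are named. Further list members and FBtr0164066 and FBtr0172200 were picked after their values were seen.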

Additional observations from a re-analysis of the deposited data

Results flagged for a closer look

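Within groups of 4 or 5 arrays, 192 combinations of a named transcript or array measure with a Punta Prieta group were searched for an array that stood far from the others, and 24 were found, where chance gives about 1 in 20 groups. The array named is given with the range of the rest of its group, and why it stood apart was not tested.

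Replicate 1 of organ pipe at 15°C was low for flightin (8.98, the rest 11.72 to 12.15), FBtr0171653 (8.19, 9.96 to 10.07), and the carboxypeptidases FBtr0163029 (8.71, 10.98 to 11.42) and FBtr0163693 (8.67, 10.82 to 11.17). Each of these transcripts was called higher on agria. Replicate 3 of agria at 35°C was low for CG13912 (7.23, 8.56 to 8.90), FBtr0166604 (10.23, 11.49 to 11.86), FBtr0163029 (11.11, 11.82 to 12.03), FBtr0163693 (10.66, 11.42 to 11.57), the lipase GI21891 (9.60, 11.07 to 11.44), and GI17540 (7.14, 7.33 to 7.41). Replicate 1 of agria at 25°C was low for Cyp6a21 (10.01, 10.71 to 10.81), FBtr0163029 (11.45, 12.09 to 12.12), FBtr0163693 (11.02, 11.70 to 11.80), and FBtr0162057 (8.51, 9.02 to 9.08), and replicate 3 of that group for flightin (12.22, 12.70 to 12.79).

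Replicate 3 of agria at 15°C was high for the serine endopeptidase FBtr0166604 (11.89, 10.81 to 10.93) and CG13492 (10.46, 9.27 to 9.47) and low for GI19843 (6.63, 6.88 to 6.90). Replicate 2 of organ pipe at 25°C was low for FBtr0169804 (7.02, 9.45 to 9.73) and high for GI22071 (11.49, 10.60 to 10.68). At 35°C on organ pipe, replicate 4 was low for the kinase FBtr0174274 (11.29, 11.81 to 11.91), replicate 2 for GI20397 (8.91, 9.49 to 9.54), and replicate 1 in its array median (9.95, 9.996 to 10.0). On organ pipe at 15°C, replicate 2 was low for GI18419 (12.47, 12.88 to 12.91).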

How the results depend on the processing

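Against 1039 transcripts in the main comparison, 275 passed on the Punta Prieta arrays alone, 691 after median centring, 1683 with a term for the interquartile range of the array, 3716 with limma array weights, whose estimation did not converge, 107 without temperature in the fit, 161 when a fold of at least 1.5 was also asked for, 3191 at an adjusted p under 0.05, and 457 without the 3 arrays farthest from their group, an alternative chosen after seeing the data. Median centring moved the median of all transcripts from -0.03 to -0.08. With arrays or replicate numbers left out, the count ran from 0 to 1469. It was 0 without the arrays numbered 1 or 3 in all groups (3942 and 5192 transcripts at an unadjusted p under 0.05) and 132 without those numbered 4. It changed by over 1.5 times without the single arrays agria 15°C 3 (239), agria 25°C 2 (653) and 4 (541), agria 35°C 2 (529), organ pipe 15°C 1 (260) and 3 (649), organ pipe 25°C 3 (657), and organ pipe 35°C 1 (631) and 4 (568).

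At 35°C the count of 1 fell to 0 on the Punta Prieta arrays alone, after a further quantile normalization, with the interquartile range, without the dimmest 25%, with array weights, with a mean-variance trend, with the replicate block, and without the 3 arrays, and ranged from 0 to 2 with arrays left out. At 15°C array weights gave 35, and arrays left out 0 to 1. At 25°C array weights gave 1420, the dim filter and the trend 1 each, and arrays left out 0 to 1. The difference from San Quintin gave 1 with array weights. The interaction and the difference from the mean of the other populations gave 0 in all fits run, and the latter could not be run on fewer populations. With arrays left out, the difference in array medians ran from 0.05 to 0.06 and that in interquartile ranges from 0.08 to 0.12.

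Same-numbered Punta Prieta arrays of agria and organ pipe at the same temperature showed no steady sign of deviating together (12 pairs, correlations from -0.43 to 0.37, 5 over 0.1). Whether the numbers mark a batch shared across temperatures or populations was not tested. The replicate block gave 1102 calls, 1001 and 101 by direction, of which 925 were among the 1039. In each other setting 19 of the 21 gene lists had a median above that of all transcripts, 19 to 20 with arrays left out. Annotated transcripts as a whole had a median of 0.23 in the main fit, against -0.03 for all transcripts. List members are annotated transcripts, so this count says little about the lists. Only the medians of the chaperones and ribosomal proteins changed sign, in 4 and 7 of 44 settings. None of 98 named calls changed sign in any fit.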
